A study of Mus musculus with 44 samples.

Results

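The 8 mouse genes described here encode small GTPases or proteins acting on heterotrimeric G proteins, and they were followed through each assay of the series that was used. The genes are Gem, Rem2, Rasl11b, Rasd1, Rgs2, Rgs4, Arl4d and Rnd3, 8 of the 17126 genes listed in the files. They were picked by name, with values of these libraries already known, and each is represented by 1 RefSeq transcript. On GRCm38.p6 (mm10) they lie as follows: Gem (NM_010276) at chr4:11704447-11714993, Rem2 (NM_080726) at chr14:54476100-54480434, Rasl11b (NM_026878) at chr5:74195326-74199477, Rasd1 (NM_009026) at chr11:59963181-59964944, Rgs2 (NM_009061) at chr1:143999338-144004149, Rgs4 (NM_009062) at chr1:169741477-169747642, Arl4d (NM_025404) at chr11:101665541-101667832 and Rnd3 (NM_028810) at chr2:51130439-51149111. Which readouts were used in choosing them is not recorded, so their changes with light and in stimulated cultures are given as descriptions with errors and without a test.

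Small GTPases are switches that bind GTP or GDP, and exchange factors and GTPase-activating proteins (GAPs) turn them on and off. Gem and Rem2 belong to the RGK branch of the RAS superfamily, which binds the beta subunits of voltage-gated calcium channels and lowers calcium entry. Rasl11b and Rasd1 (Dexras1) are RAS-like proteins, Arl4d belongs to the ARF-like branch that recruits cytohesins to the plasma membrane, and Rnd3 is a small GTPase that affects the actin cytoskeleton. Rgs2 and Rgs4 are not GTPases but GAPs for the alpha subunits of heterotrimeric G proteins, and they shorten signalling from receptors. Several of these genes are known in neurons as genes whose mRNA responds to activity.

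The light experiment used the visual cortex of 8 mice between 6 and 7 weeks old that had spent 1 week in the dark, of which 4 were then exposed to light for 1 h and 4 were not. Their poly(A) tails were profiled by PAL-seq v2, which counts 1 tag per captured mRNA 3′ end and measures its tail in nucleotides (nt). Cultures were primary cortical neurons from newborn pups. At 14 days in vitro (DIV14) they were left unstimulated, received BDNF or else glutamate plus glycine (glu/gly) for 30 min, or carried since day 5 a lentivirus in which a synapsin promoter drove GFP alone, GFP with miR-1 or GFP with miR-155. At DIV10 they were unstimulated or depolarized with KCl for 10 min or 30 min. Tissues were the hippocampus of an adult male, the hippocampus of embryos at embryonic day 16 and the cortex of an adult male. The labels and methods name no engineered allele, and the strain named is C57BL6J. Every condition outside the light experiment was sampled once by each of its assays: RNA-seq, ribosome profiling (ribosome-protected fragments, RPFs) and a tail assay (TAIL-seq, or PAL-seq v2 for the hippocampi). For the miR-1 and miR-155 cultures the labels of the ribosome profiling contradict themselves, and those 2 libraries were not used here.

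Levels are given in CPM, a gene's count divided by the counts on all genes of its library and scaled to 1000000. PAL-seq tags on genes ran from 1233538 to 4812273 per mouse. In the cultures RNA-seq reads on genes ran from 448022 to 2111244 and RPFs from 2812215 to 9477806. All 6 genes of a stimulus check (Fos, Arc, Npas4, Egr1, Nr4a1 and Junb) rose with light in edgeR's quasi-likelihood test, by 2.36 to 4.13 on the log2 scale. Dark mouse 4 stood apart from the other dark mice in these genes: its Fos was 152 CPM against 8.21 to 54.6, and its Arc was 242 against 28.1 to 65.6. Of 28 markers in 7 cell-type lists, 26 were tested and 0 passed (edgeR, adjusted p under 0.05), beside 1.21% of all genes higher in light and 0.126% lower. Summed oligodendrocyte markers were 589 to 942 CPM in the dark and 381 to 708 in light, and summed astrocyte markers were 697 to 896 and 550 to 765. Whether these shifts had a part in the results below was not tested. In bulk tissue, fewer cells of a type and less RNA per cell cannot be told apart. In the cultures the neuron markers Snap25, Syt1, Rbfox3, Tubb3 and Map2 summed to between 2843 and 3507 CPM by RNA-seq and astrocyte markers to between 742 and 1687 CPM, while oligodendrocyte markers were at or below 15.1 CPM.

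All 8 mRNAs have short reading frames and few exons. Their reading frames spanned 606 nt (Arl4d) to 1026 nt (Rem2), against a median of 1347 nt over 16859 genes. Gem, Rem2, Rgs2, Rgs4 and Rnd3 have 5 exons, Rasl11b has 4, and Rasd1 and Arl4d have 2, against a median of 8. The 3′ UTRs were more varied, from 577 nt in Arl4d and 629 nt in Rasd1 to 2204 nt in Rgs4 and 2342 nt in Rgs2 (median of all genes, 925 nt). The pentamer ATTTA, a core of AU-rich elements that can mark mRNAs for rapid decay, occurred 4 times in the 3′ UTR of Gem (3.23 per kb, above 82.4% of genes), 2 times in that of Rasd1 (3.18 per kb), 5 times in that of Rgs2 and 4 times in that of Rnd3. Rem2, Rasl11b and Rgs4 held 1 each, and Arl4d held 0. All genes together had a median of 1.16 per kb.

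Promoter windows from RefSeq (GRCm38.p6, 250 bases before the gene's start and 50 after) were used here for 6 of the 8 genes: Rem2, Rasl11b, Rgs2, Rgs4, Arl4d and Rnd3. They were searched on both strands for the cAMP response element (CRE, TGACGTCA, bound by CREB), its core (TGACG or CGTCA, contained in the full CRE), the AP-1 site TGANTCA, the EGR site GCGTGGGCG, the CArG box of serum response factor and the MEF2 site. The 4 windows with a match are shown. Cores are in capitals in the first 3, so that the full CRE of Arl4d appears as 1 run of capitals, and the CArG box is in capitals in Rnd3. They lie at chr11:101665291-101665590 on the plus strand (Arl4d), chr1:144004100-144004399 on the minus strand (Rgs2), chr1:169747593-169747892 on the minus strand (Rgs4) and chr2:51149062-51149361 on the minus strand (Rnd3).
Arl4d: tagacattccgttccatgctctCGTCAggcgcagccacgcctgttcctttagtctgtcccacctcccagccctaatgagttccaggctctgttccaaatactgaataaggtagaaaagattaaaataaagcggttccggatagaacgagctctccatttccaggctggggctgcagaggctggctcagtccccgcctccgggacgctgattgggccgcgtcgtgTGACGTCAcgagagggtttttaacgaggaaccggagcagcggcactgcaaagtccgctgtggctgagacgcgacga
Rgs2: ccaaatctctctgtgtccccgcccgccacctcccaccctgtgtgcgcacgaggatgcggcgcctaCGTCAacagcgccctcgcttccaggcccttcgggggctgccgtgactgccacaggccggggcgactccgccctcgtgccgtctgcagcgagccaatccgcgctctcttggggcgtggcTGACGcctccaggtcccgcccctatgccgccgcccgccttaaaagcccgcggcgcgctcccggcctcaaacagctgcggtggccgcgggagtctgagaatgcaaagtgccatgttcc
Rgs4: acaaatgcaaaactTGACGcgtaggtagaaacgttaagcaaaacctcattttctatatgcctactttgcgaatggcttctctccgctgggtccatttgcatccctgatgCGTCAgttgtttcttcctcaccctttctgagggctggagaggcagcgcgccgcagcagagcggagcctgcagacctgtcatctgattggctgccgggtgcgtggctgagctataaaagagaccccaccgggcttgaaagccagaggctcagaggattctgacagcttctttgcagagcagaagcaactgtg
Rnd3: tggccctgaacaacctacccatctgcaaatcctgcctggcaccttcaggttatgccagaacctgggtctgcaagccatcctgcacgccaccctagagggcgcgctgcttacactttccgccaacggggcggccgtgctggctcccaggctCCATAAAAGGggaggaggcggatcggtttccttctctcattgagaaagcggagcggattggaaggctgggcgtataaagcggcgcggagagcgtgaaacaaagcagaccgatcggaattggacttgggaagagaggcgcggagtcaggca

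The full CRE of Arl4d began 26 bases before the gene's start. Of 32851 promoter windows in the table, 1.79% held a full CRE. Rgs2 and Rgs4 had 2 cores each and no full CRE, and 20.8% of windows held a core. The CArG box of Rnd3 began 100 bases before the start, and 1.63% of windows held one. An AP-1 site lay in 7.81% of all windows, an EGR site in 0.612% and a MEF2 site in 0.557%, and none of the 3 in the 6 members' windows, and those of Rem2 and Rasl11b held none of the 6 motifs. A match describes the letters of the window only.

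The first question was how the mRNA level of each gene differed between dark and light. Gem showed the steepest difference of the members. It had 0, 7, 1 and 1 tags in dark mice 1 to 4 and 24, 36, 43 and 21 tags in light mice 1 to 4. Scaled to the tags on genes, this was 0.760 ± 0.595 CPM in the dark and 19.9 ± 5.36 in light (SD, n = 4 each), and every light mouse lay above every dark mouse. The edgeR fit gave a log2 difference, light minus dark, of 4.27 ± 0.45 (SE), a 19.3-fold difference. Because the dark counts were so few, the value moved to 5.12 without dark mouse 2, which held 7 of the 9 dark tags. The pooled tags, 124 against 9, gave a ratio of 19.4 with a 95% interval of 9.91 to 43.5 that covers counting error only. Gem passed the filter on low counts only through its light mice.

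Arl4d had the next largest difference, with 15.05, 19.1, 18.7 and 58.8 CPM in the dark and 133, 155, 89.5 and 52.3 in light. The groups overlapped, because dark mouse 4 lay above light mouse 4. The means were 27.9 ± 20.7 and 107 ± 45.6 (SD, n = 4), and the log2 difference was 2.07 ± 0.32 (SE), or 4.20-fold. Dark mouse 4 was also the dark mouse with the highest level of each gene of the stimulus check. Without it the log2 difference of Arl4d was 2.59.

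The GAPs Rgs4 and Rgs2 were far more abundant and differed less. Rgs4 measured 670, 755, 674 and 714 CPM in the dark and 999, 1357, 1475 and 1046 in light. Rgs2 measured 92.3, 92.3, 79.6 and 91.0 in the dark and 130, 159, 205 and 116 in light. Neither pair of groups overlapped. The log2 differences were nearly equal, 0.82 ± 0.11 (SE) for Rgs4 and 0.81 ± 0.14 for Rgs2, or 1.76-fold and 1.75-fold. Each was also the gene nearest to the other among 9554 by root mean square distance of centred log2 levels over the 8 mice (0.107).

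Rasl11b and Rnd3 were higher on average in light, with overlapping groups. Rasl11b measured 68.4, 60.7, 39.8 and 67.6 CPM in the dark and 90.0, 117, 103 and 59.4 in light, where light mouse 4 lay below 3 of the 4 dark mice. Rnd3 measured 19.8, 30.1, 21.1 and 24.96 in the dark and 28.4, 31.3, 54.2 and 48.1 in light, and only light mouse 1 lay within the dark range. Their log2 differences were 0.66 ± 0.18 (SE) and 0.75 ± 0.21.

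Rem2 and Rasd1 failed the filter on low counts. Rem2, the closest relative of Gem among the members, had 7, 20, 4 and 2 tags in the dark and 5, 4, 11 and 4 in light. Its means of 3.42 ± 1.39 and 3.81 ± 1.80 CPM (SD, n = 4) overlapped almost entirely. Rasd1 had 13, 16, 4 and 7 tags in the dark and 2, 4, 11 and 2 in light, or 5.24 ± 2.69 and 2.91 ± 2.31 CPM. At this depth a difference of either gene between the groups was not resolved.

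**Figure D1:**
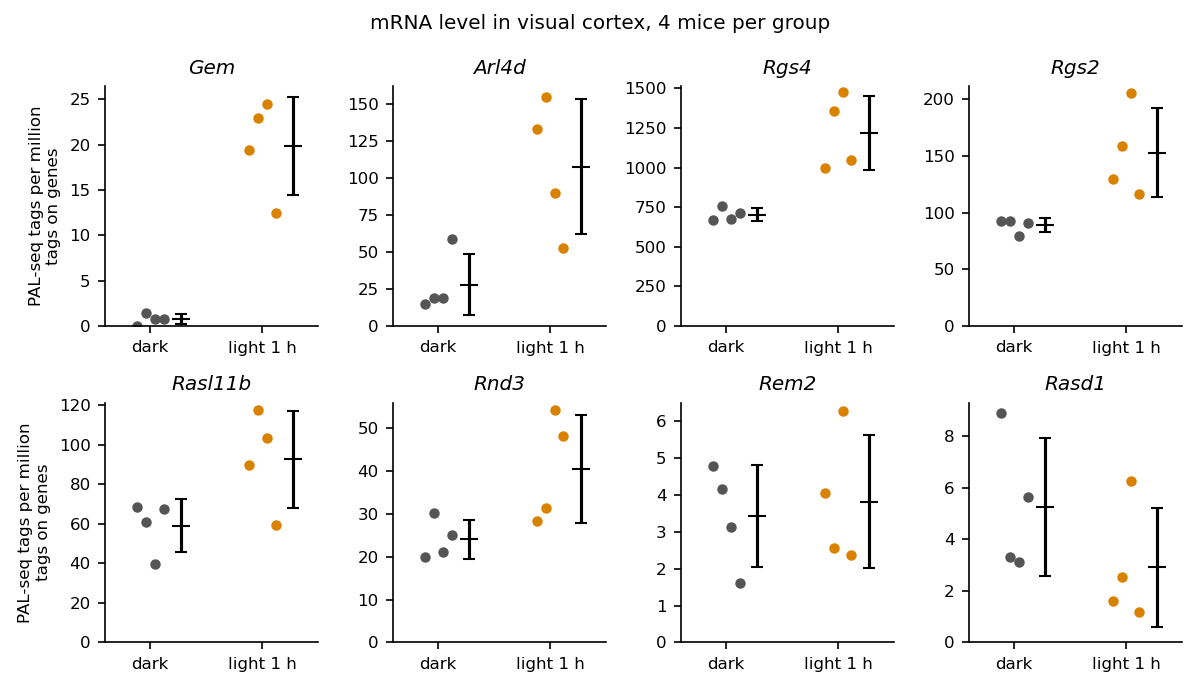
Level in CPM (tags per 1000000 on genes, linear axes from 0) for the 8 genes in 4 dark and 4 light mice; points are mice, bars the mean and SD. Gem sits at 0 to 1.45 in the dark and at 12.5 to 24.5 in light, and the groups also stand apart for Rgs4 and Rgs2 but overlap for the other 5 genes.

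Over all 9554 genes tested, 1.21% were higher in light at an adjusted p under 0.05 and 0.126% were lower, and in 2.63% the light mice all lay above the dark mice. Among the members the light mice all lay above the dark mice for Gem, Rgs4 and Rgs2. The light contrast was open to whoever chose the members, so nothing is read from that count. In the dark the members ranked Rgs4, Rgs2, Rasl11b, Arl4d, Rnd3, Rasd1, Rem2 and Gem by CPM. Neighbours in this order overlapped between Rasl11b and Arl4d, between Arl4d and Rnd3, and between Rasd1 and Rem2. In light Gem stood above Rem2 and Rasd1 and below Rnd3, with no overlap on either side.

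The genes whose centred log2 levels lay nearest to those of Gem over the 8 mice were Egr1 (distance 0.409), Nr4a2 (0.478), Gadd45b (0.513), Fosb (0.565) and Trib1 (0.592). Egr1, Nr4a2 and Fosb encode transcription factors of the immediate-early class. The nearest gene to Arl4d was Dusp1 (0.325), which encodes a phosphatase of MAP kinases. Nearness over 8 mice that fall into a dark and a light group mostly reflects a difference of similar size between those groups.

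Relatives outside the 8 were tested in the same fit, from lists of RAS, RGS, and ARF and ARL family members, of RAS exchange factors and GAPs, and of known partners. Among 23 of 28 RAS family genes tested, 1 passed: Rasl11a, the paralog of Rasl11b, rose in light. It measured 2.05, 2.70, 3.12 and 6.44 CPM in the dark and 20.3, 33.2, 27.4 and 14.9 in light, so that the groups did not overlap. Its log2 difference was 2.87 ± 0.36 (SE; edgeR, adjusted p = 1.90e-05), larger than that of Rasl11b, and leaving out any 1 mouse gave 2.67 to 3.19. Among 21 of 24 partners, Gnai3, an inhibitory G-protein alpha subunit on which RGS proteins act, rose by 0.69 ± 0.17 (edgeR, adjusted p = 0.0366), from 44.0 ± 7.24 to 68.1 ± 16.2 CPM (SD, n = 4). The call on Gnai3 was lost without dark mouse 2, dark mouse 3, light mouse 2 or light mouse 3, with adjusted p of 0.152, 0.123, 0.172 and 0.187, and with the replicate block (adjusted p = 0.129).

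None of the 11 tested RGS family genes, 18 ARF and ARL family genes or 12 exchange factors and GAPs passed. Of all genes tested, 1.21% were higher in light and 0.126% lower, so nothing is read from the counts of the lists. The differences within the lists were small on average. Their median log2 differences were 0.02, 0.01 and -0.01, against a median of -0.0047 over all genes tested, and that of the RAS family was -0.03. The largest difference in the RGS list was 0.51, below those of Rgs2 and Rgs4, which were kept out of the lists along with the other members.

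Tail lengths were compared next, with each tail given as the mean over the tags of a gene in a mouse. Rasl11b, Rgs2 and Rgs4 had at least 50 tags in every mouse. Tails of Rasl11b measured 108, 94.3, 91.2 and 92.5 nt in the dark and 114, 116, 120 and 116 nt in light. Every light mouse lay above every dark mouse, and the means were 96.5 ± 7.86 nt and 116 ± 2.51 nt (SD, n = 4), a difference of 19.95 ± 4.12 nt (SE from the spread of this gene). Tails of Rgs4 measured 97.5, 93.5, 83.4 and 85.2 nt in the dark and 98.4, 111, 109 and 92.2 nt in light, a difference of 12.8 ± 5.63 nt with overlap. Tails of Rgs2 differed by 9.05 ± 8.09 nt, from 80.4 ± 10.9 nt to 89.4 ± 11.9 nt, also with overlap. The Rgs2 difference was 4.88 nt without dark mouse 3 and 14.7 nt without light mouse 4.

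The median tail over the 4321 genes with 50 tags in every mouse differed between mice, from 77.5 nt (dark mouse 3) to 97.5 nt (light mouse 3), and the median gene was 3.75 nt longer in light. Tails were therefore also taken less the median of each mouse, a scale added after the values were seen. On it Rasl11b stood 15.8, 3.60, 13.7 and 12.5 nt above the median in the dark and 31.0, 21.8, 22.6 and 33.9 nt above it in light. Rgs4 stood 5.13, 2.85, 5.89 and 5.22 nt above it in the dark and 15.1, 16.95, 11.9 and 10.5 nt above it in light. Neither gene's groups overlapped on this scale, and the differences were 15.9 nt for Rasl11b and 8.83 nt for Rgs4. Rgs2 still overlapped, with a difference of 5.03 nt.

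Arl4d and Rnd3 had at least 20 but not 50 tags in every mouse. Arl4d was the member with longer tails in the dark: 97.0, 112, 118 and 139 nt against 84.4, 94.7, 113 and 92.9 nt in light, with 22 to 92 and 88 to 242 tags behind each value. Its difference was -19.9 ± 10.6 nt and the groups overlapped. The longest of these tails, 139 nt, was that of dark mouse 4, which also had the highest dark level of Arl4d. Rnd3 differed by 7.46 ± 9.67 nt. Gem had too few tags in the dark for a tail per mouse. Its 124 light tags had a mean tail of 88.4 nt and its 9 dark tags one of 66.3 nt, and the light mice measured 100, 88.2, 76.5 and 99.7 nt on 24, 36, 43 and 21 tags. Over all genes tested with limma, 0.231% had longer tails in light at an adjusted p under 0.05. Groups stood apart with longer tails in light for 0.602% of genes, Rasl11b among them. On the scale less the median of each mouse the share was 3.19%.

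**Figure D2:**
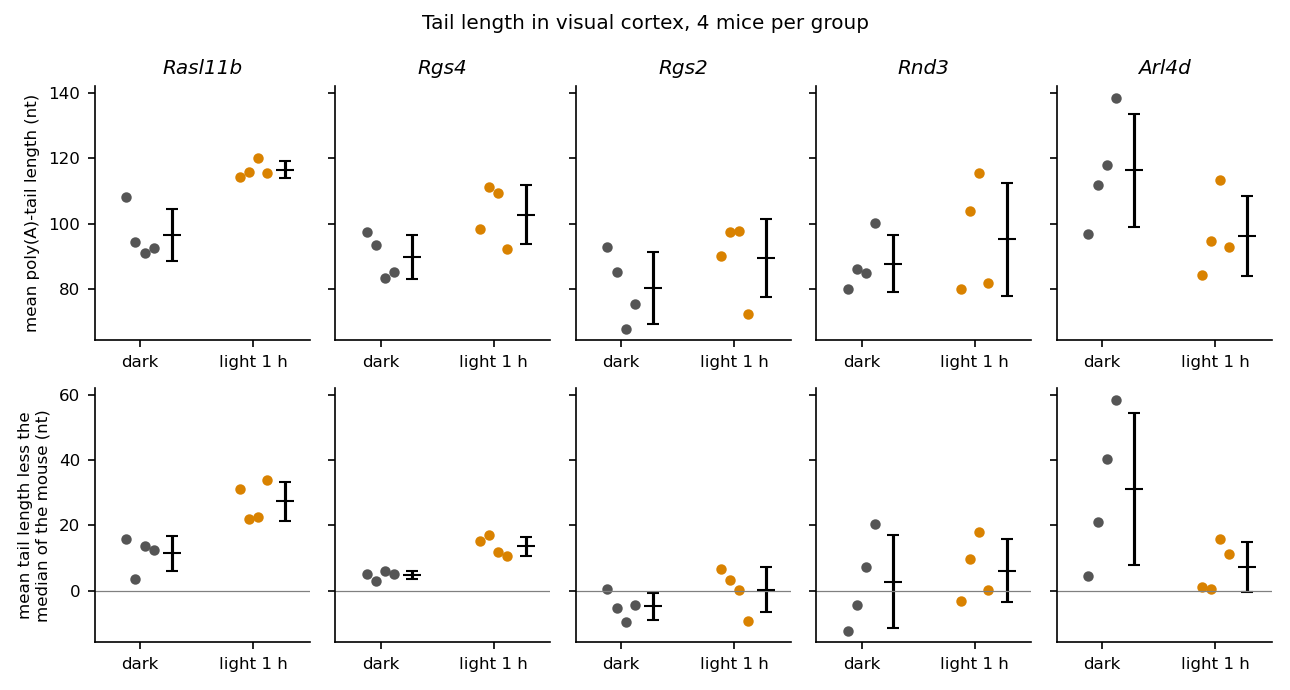
Mean poly(A)-tail length in nt (top) and the same less the median tail of each mouse (bottom) for the 5 genes with at least 20 tags in every mouse; points are mice, bars the mean and SD of 4. Rasl11b is longer in all 4 light mice on both scales, Rgs4 on the lower scale only, and Arl4d has a lower mean in light.

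No gene of the related lists passed the limma test of tail length, beside 0.231% of all genes with longer tails in light. That covered 15 RAS, 5 RGS, 14 ARF and ARL genes, 8 exchange factors and GAPs and 15 partners. Their median differences were 3.91, 0.95, 5.11, 5.48 and 4.80 nt, beside 3.75 nt over all genes. Among the cell-type markers, Mbp of oligodendrocytes had longer tails in light by 27.1 ± 6.68 nt (limma, adjusted p = 0.0372). That call was lost when dark mouse 2, 3 or 4 or light mouse 2 or 3 was left out, and also with at least 20 tags (adjusted p = 0.201), on the log2 scale (0.279), with the replicate block (0.133) and with the median of each mouse subtracted (0.0733).

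Stimulated cultures gave a second view, with RNA-seq, RPFs and tails from the same conditions. Both DIV14 stimuli share 1 control culture and both KCl times share another. With 1 library per condition and assay there is no replicate check, and each ratio below is scaled by the counts on genes and has a 95% Clopper-Pearson interval of counting error only. All 6 genes of the stimulus check had at least 2-fold more RPFs with BDNF, glu/gly and 30 min of KCl, and 4 of them did with 10 min of KCl.

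Gem, the member with the largest difference in light, was not higher in any stimulated culture beyond counting error. With BDNF its RPFs went from 29 to 11, a ratio of 0.445 (0.201 to 0.918), its RNA-seq reads from 8 to 3 and its tags from 12 to 6. With glu/gly its RPFs went from 29 to 12, a ratio of 0.638 (0.297 to 1.29), its reads from 8 to 3 and its tags from 12 to 5. The 5 astrocyte markers also had a lower summed level in the stimulated cultures, 1513 CPM by RNA-seq in the control, 1122 with BDNF and 1194 with glu/gly, and by RPFs Gfap and Aldh1l1 had ratios of 0.669 and 0.680 with BDNF. With 10 min of KCl the 5 markers had a median log2 change of 0.10 by RPFs and -0.06 by RNA-seq. The part of these markers in the Gem values was not tested. For Gem all 3 assays pointed downwards for both stimuli, but only the BDNF RPFs left out a ratio of 1. With 10 min of KCl the RPFs went from 181 to 74 in a shallower library, a ratio of 0.703 (0.529 to 0.926), and the RNA-seq ratio was 0.513 (0.205 to 1.13). With 30 min of KCl the RPF ratio was 1.06 (0.785 to 1.43) and the RNA-seq ratio 0.932 (0.521 to 1.63). Tissue, stimulus, duration and assay all differ between the mice and the cultures, so their values stand side by side only.

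Arl4d was higher in culture as well. Its RPFs went from 79 to 592 with BDNF, a ratio of 8.79 (6.94 to 11.3), and from 79 to 245 with glu/gly, a ratio of 4.78 (3.70 to 6.24). The RNA-seq ratios were 7.43 (3.93 to 15.5) and 3.54 (1.80 to 7.57), and the ratios of tags were 6.14 (4.04 to 9.69) and 3.16 (1.97 to 5.20). With KCl the RPF ratio was 1.99 (1.38 to 2.87) at 10 min and 3.11 (2.12 to 4.55) at 30 min, with RNA-seq ratios of 1.04 (0.323 to 2.92) and 2.51 (1.21 to 5.42). The intervals left out 1 in all 3 assays for BDNF, glu/gly and 30 min of KCl. The same gene holds the full CRE shown above, whose part in these values was not tested.

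Rgs2 was higher by a smaller factor. Its RPF ratios were 1.43 (1.28 to 1.60) with BDNF, 1.28 (1.13 to 1.44) with glu/gly, 1.14 (1.04 to 1.24) with 10 min of KCl and 1.26 (1.13 to 1.39) with 30 min. Scaling by the deposited RPM lowered the log2 RPF change to 0.17 with glu/gly and to 0.00014 with 10 min of KCl, and turned the RNA-seq change at 30 min of KCl from 0.21 to -0.29. Rgs4 stayed close to its controls, with RPF ratios of 1.23 (1.14 to 1.32), 1.05 (0.964 to 1.13), 1.01 (0.946 to 1.08) and 1.10 (1.02 to 1.19) in the same order, and the deposited RPM turned the sign with glu/gly and with 10 min of KCl. Rnd3 had RPF ratios of 1.25 (0.999 to 1.55), 1.03 (0.798 to 1.32), 1.17 (1.03 to 1.33) and 1.19 (1.01 to 1.39), and with the deposited RPM its glu/gly value changed sign.

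Rasl11b and Rem2 had RPF intervals that included 1 for every stimulus. Their RPF ratios ran from 1.17 to 1.31 and from 0.915 to 1.20, on 53 to 283 and 51 to 132 RPFs. Rasd1 was almost absent from the cultures: it had 0 to 7 RPFs and 0 RNA-seq reads in each of the 6 stimulated and unstimulated cultures, so no ratio is given. By the floor of 3 counts, 0 RNA-seq reads allow up to 6.26 CPM in the BDNF culture and 2.52 CPM in the deeper DIV10 control.

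**Figure D3:**
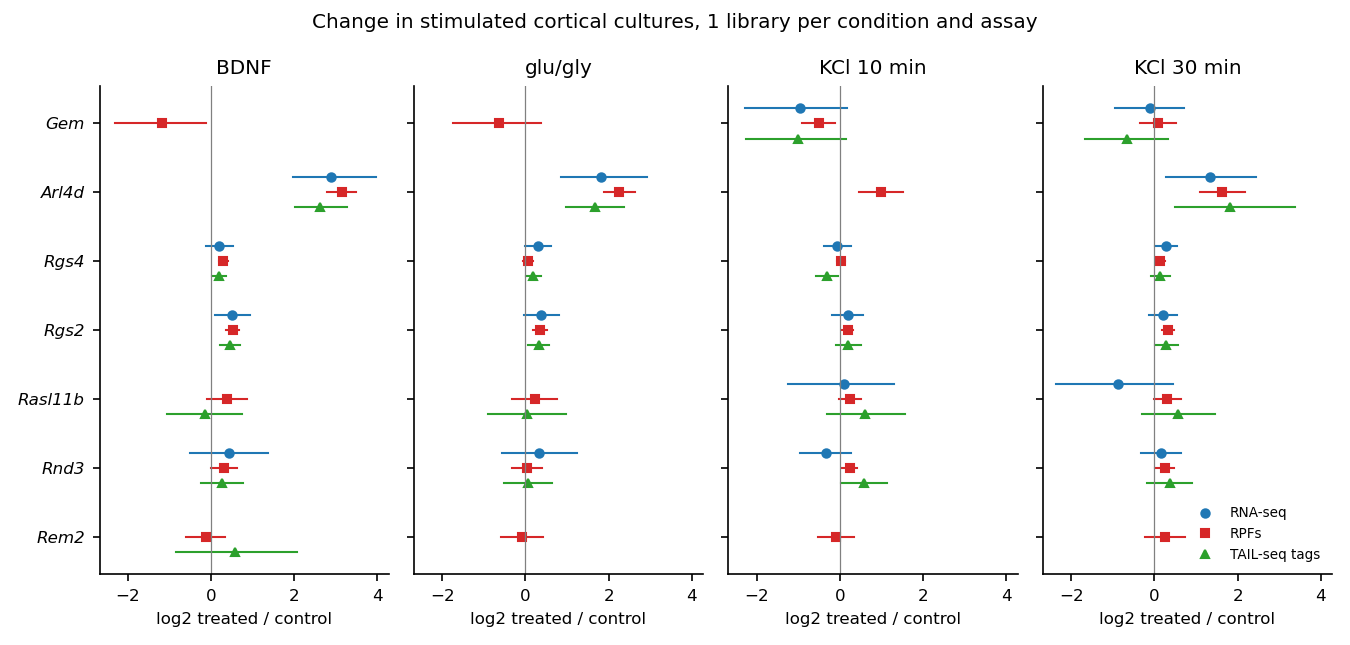
Log2 ratio of treated to control culture by RNA-seq (circles), RPFs (squares) and TAIL-seq tags (triangles) for 7 genes, with 95% counting intervals; assays with fewer than 20 counts in both libraries together are left out. Arl4d lies right of 0 with BDNF, glu/gly and 30 min of KCl in each assay, Gem lies left of 0 with BDNF by RPFs, and the points of the other genes lie within 1 of 0.

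A ratio of at least 2 with an interval that leaves out 1 was reached by Arl4d with BDNF, glu/gly and 30 min of KCl, beside 0.598%, 0.501% and 1.12% of genes with at least 20 RPFs in either library. With 10 min of KCl it fell just short at 1.99, beside 0.932% of genes. In the lower direction Gem passed with BDNF, beside 2.6% of genes, and no member passed with glu/gly, 10 min or 30 min of KCl, where 2.13%, 5.79% and 5.23% of genes did. Since the members may have been chosen on these contrasts, nothing is read from the counts.

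Tails in culture rested on few tags for most members. The 162 Arl4d tags of the BDNF culture had a mean tail of 168 nt and the 26 tags of the control one of 126 nt, and the 63 tags with glu/gly measured 137 nt. The mean tail of Arl4d was thus longer with BDNF, whereas it was shorter in light, where the groups overlapped. Tails of Rasl11b went from 103 nt on 24 tags to 130 nt with BDNF and 129 nt with glu/gly, on 22 and 19 tags. Tails of Rnd3 measured 117 nt in the control and with BDNF, on 60 and 73 tags, and 128 nt with glu/gly on 48 tags. Tails of Rgs2 went from 113 nt (254 tags) to 130 nt with BDNF and 120 nt with glu/gly, changes above those of 98.8% and 94.7% of genes with 50 tags in both libraries. Tails of Rgs4 were 119 nt, 119 nt and 118 nt in the same 3 cultures. With KCl, Rgs2 measured 100 nt in the control and 102 nt at both times, and Rgs4 measured 110, 107 and 106 nt. Arl4d measured 160 nt in the DIV10 control, 106 nt at 10 min and 142 nt at 30 min, on 6, 10 and 27 tags, so that its mean was shorter with KCl and longer with BDNF. Rasl11b measured 82.8, 103 and 95.8 nt on 18, 26 and 34 tags.

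Related genes in the same cultures were counted by RPFs. With BDNF, 1 of 14 exchange factors and GAPs (Rasa4, ratio 2.35, 1.09 to 5.36) passed the 2-fold rule, beside 0.598% of all genes higher. None of 22 RAS, 12 RGS, 21 ARF and ARL genes or 24 partners did. With glu/gly, none of the genes in these lists did. By the same rule 5.79% of all genes were lower with 10 min of KCl. There, 2 of 22 RAS genes, 2 of 15 RGS genes and 2 of 24 partners passed, all lower. Among them were Rasl10b (0.206, 0.103 to 0.376), Mras (0.423, 0.347 to 0.513), Rgs6 (0.472, 0.327 to 0.668) and the GAPs Arhgap5 (0.479) and Arhgap35 (0.481). With 30 min of KCl, Rasl10b (0.249), Rgs13 (0.155, on 20 and 1 RPFs) and Arhgap35 (0.490) were lower and the RAS GAP Rasal1 was higher (2.27, 1.37 to 3.73). These were 1 of 22 RAS genes, 1 of 15 RGS genes, 1 of 24 partners and 1 of 14 exchange factors and GAPs. Of all genes, 5.23% were lower and 1.12% higher. Nothing is read from these list counts. Rasl11a, which rose in light, had an RPF ratio of 1.76 (1.07 to 2.95) with BDNF.

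Gem was highest in the DIV10 cultures by RPFs. By RPFs it was 20.3 CPM (95% interval 15.6 to 26.1) after 30 min of KCl, 19.1 (16.4 to 22.1) in the unstimulated DIV10 culture, 13.4 (10.5 to 16.8) after 10 min of KCl, 6.69 (4.48 to 9.60) in the unstimulated DIV14 culture, 5.76 (3.36 to 9.23) with GFP, 4.27 (2.20 to 7.45) with glu/gly, 2.98 (1.49 to 5.32) with BDNF and 2.67 (1.63 to 4.12) in adult cortex. The intervals of the 3 DIV10 cultures overlapped each other and lay above the rest, and among the last 5 each overlapped the next. All DIV10 cultures belong to the KCl experiment, so age in vitro cannot be told apart from the set of cultures. Counting intervals do not cover the spread between culture preparations. By RNA-seq Gem was 29.4 CPM (20.5 to 40.9) in the DIV10 control, 15.1 (6.505 to 29.7) after 10 min of KCl, 27.4 (17.2 to 41.5) after 30 min and 15.7 (6.79 to 31.0) in the DIV14 control, and these 4 intervals overlapped. The 3 genes nearest to Gem over the 12 RNA-seq libraries were Acot1 (0.430), Ttc12 (0.431) and Rab31 (0.460). The distance was again the root mean square of centred log2 levels, here of CPM plus 1. In the mice the log2 levels came from edgeR's own scaling, so the distances are not on the same scale. Gem had 1 to 35 reads in these libraries, so its nearest genes there rest on few counts.

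Between genes, levels were compared in CPM per kb of counted reading frame. Rgs4 led in every culture by RPFs, with 452 to 725 CPM per kb, followed by Rgs2 with 199 to 326. Rnd3 came next in most cultures (54.5 to 109), but Arl4d overtook it with BDNF (288 against 67.9) and glu/gly (157 against 56.1). Gem and Rem2 ran from 3.55 to 24.3 and from 13.4 to 34.0. Adult cortex had the most Rgs4 of the 10 samples with RPFs (1262 CPM per kb), although by RNA-seq the miR-1 culture held more (896 against 658), and the RPFs of adult cortex gave 129 for Rasl11b and 36.3 for Rasd1.

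**Figure D4:**
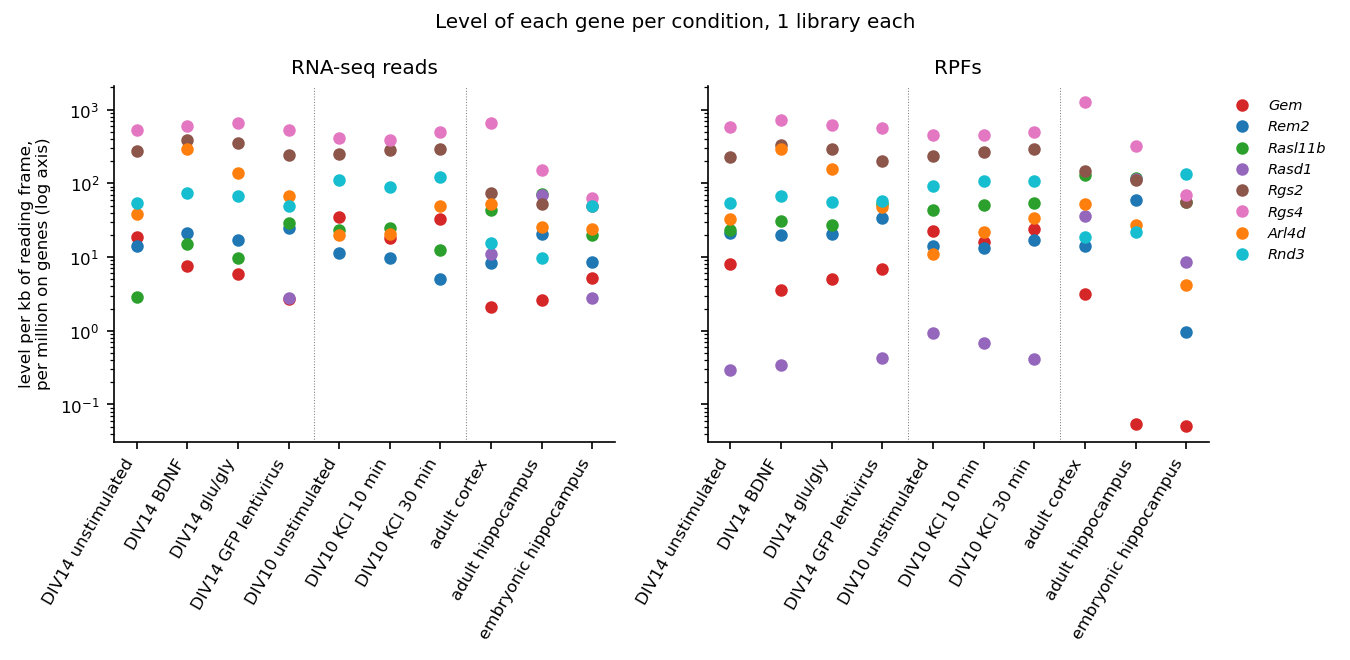
RNA-seq reads (left) and RPFs (right) in CPM per kb of reading frame (log axes) for the 8 genes in 7 cultures and 3 tissues, 1 library each; a value of 0 is not drawn. Rgs4 is at the top of nearly all columns, Arl4d climbs with BDNF, and Rasd1 is seen mainly in the tissues.

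The hippocampal ribosome-profiling libraries lacked RPFs for a set of genes. Among genes with at least 15 RNA-seq reads, 7.29% in adult and 8.59% in embryonic hippocampus had a log2 ratio of RPFs to reads below -4, against 0.205% in adult cortex. In CPM this cutoff lay lower in the hippocampi, with 7280299 (adult) and 7689624 reads on genes, than in adult cortex, with 1709163. Gem was such a gene: it had 16 and 34 RNA-seq reads but 1 RPF in each hippocampus, whereas adult cortex had 3 reads and 20 RPFs. Counting intervals understate the error of RPFs there, and what part this had in the hippocampal values of Gem, Rem2 and Arl4d was not tested. RNA-seq of the hippocampi started from poly(A)-selected RNA, whereas adult cortex was depleted of rRNA.

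Across the hippocampi the median gene was lower in the adult by 0.26 on the log2 scale, so changes are also given relative to it. By RNA-seq Rasd1 differed most among the members, with 397 RNA-seq reads against 17 in the embryo, a ratio of 24.7 (15.2 to 42.8) and a log2 change of 4.88 relative to the median gene. Its RPFs numbered 1970 and 159, a ratio of 13.3 (11.3 to 15.7). Rasl11b followed with an RNA-seq ratio of 3.62 (2.91 to 4.54), then Rem2 with 2.41 (1.78 to 3.29) and Rgs4 with 2.38 (2.06 to 2.75), or 2.12, 1.53 and 1.51 on the log2 scale relative to the median gene. Rgs2 and Arl4d had RNA-seq ratios of 1.04 (0.858 to 1.25) and 1.07 (0.803 to 1.42), or 0.31 and 0.35 on that scale. Cell-type markers differed between these tissues as well: oligodendrocyte markers summed to 1131 CPM in the adult and 14.0 in the embryo, astrocyte markers to 1208 and 357, and inhibitory neuron markers to 556 and 49.4. Their part in the members' changes was not tested.

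Rnd3 went the other way, with 49 reads in the adult and 259 in the embryo, a ratio of 0.200 (0.144 to 0.272), and with 327 and 2121 RPFs, a ratio of 0.165 (0.147 to 0.186). Gem was lower in the adult by RNA-seq as well, at 0.497 (0.256 to 0.925). Relative to the median gene the log2 RNA-seq changes were -2.06 for Rnd3 and -0.75 for Gem. For Rem2 the RPFs differed far more than the reads, 1270 in the adult against 22 in the embryo, a ratio of 61.9 (40.7 to 99.1). Arl4d showed the same split, with 325 against 54 RPFs and nearly equal reads.

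Translational efficiency (TE) divides the deposited RPM of RPFs by that of the mRNA and is given as log2, kept where RNA-seq reached 10 RPM. Rgs2 and Rgs4 had a value in all 10 samples with both assays, Rnd3 in 6, Arl4d in 2, Rasl11b and Rasd1 in 1 each, and Gem and Rem2 in 0. Log2 TE of Rgs2 ran from 0.96 in embryonic hippocampus to 2.56 in adult cortex, and that of Rgs4 from 0.90 to 2.53 in the same 2 tissues. In adult cortex they exceeded 92.8% and 92.2% of genes, and in the unstimulated DIV14 culture they exceeded 60.4% and 76.1%. Rnd3 reached 2.22 (2.04 to 2.42) in embryonic hippocampus, above 98.9% of genes, and 1.31 (0.99 to 1.65) in the unstimulated DIV10 culture.

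With at least 10 RNA-seq reads in place of the cutoff, more members could be placed. Rasl11b was translated above the median in each sample that allowed a value: its log2 TE was 2.48 (1.81 to 3.24) at DIV10, 1.78 in adult hippocampus, 2.28 in embryonic hippocampus and 3.18 (2.76 to 3.62) in adult cortex, above 92.2%, 85.7%, 99.1% and 98.3% of genes. Rasd1 lay above 86.3%, 99.5% and 98.7% of genes in adult hippocampus, embryonic hippocampus and adult cortex. Gem lay near the median at DIV10, at 0.96 (0.43 to 1.52) in the control and 1.59 (0.87 to 2.36) after 30 min of KCl, above 39.4% and 55.7% of genes. In the hippocampi it was at -4.51 and -5.90, on 1 RPF each.

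Changes in TE with stimulation could be measured for few members. With BDNF, Rgs2 changed by -0.09 (95% counting interval -0.53 to 0.36) and Rgs4 by 0.01 (-0.32 to 0.35), and Arl4d, at 11 reads in the control, by 0.15 (-0.82 to 1.13). So the 8.79-fold difference of Arl4d in RPFs stood beside one of 7.43-fold in reads. With glu/gly, Rgs4 changed by -0.54 (-0.86 to -0.22), while the median of all genes went from 1.14 to 0.91. With 30 min of KCl, Rgs2 changed by 0.57 (0.21 to 0.92), Rgs4 by 0.30 (0.03 to 0.58) and Rnd3 by 0.53 (0.02 to 1.03), while the median went from 1.17 to 1.44. These values depend on the deposited RPM. Scaled by counts on genes, Rgs2 changed there by 0.33 in RPFs and 0.21 in reads (log2). Rnd3 changed by 0.25 and 0.16, and Rgs4 by 0.14 and 0.28, so the TE change of Rgs4 turned sign. With glu/gly on that scale, Rgs4 changed by 0.06 in RPFs and 0.30 in reads. The intervals do not cover the choice of scale.

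**Figure D5:**
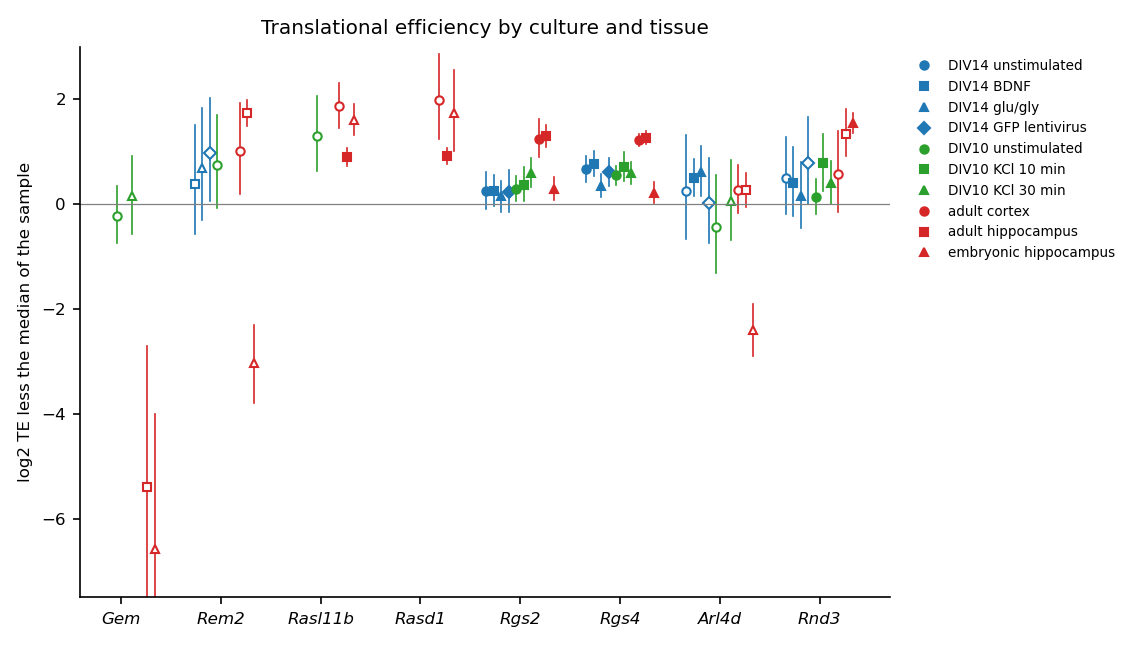
Log2 TE less the median of all genes in the same sample, for members with at least 10 RNA-seq reads; bars are 95% counting intervals, cut at the lower edge for Gem, and hollow symbols mark RNA-seq below 10 RPM. Rasl11b, Rasd1, Rgs2, Rgs4 and Rnd3 lie above 0 in every sample shown. Gem has its lowest values in both hippocampi. Rem2 and Arl4d have theirs in embryonic hippocampus only (-3.02 and -2.40). In adult hippocampus Rem2 lies at 1.73, its highest value shown, and Arl4d at 0.27.

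The miRNA cultures were compared with the GFP culture, which both share. The mature miR-155-5p of RefSeq is shown with its seed (bases 2 to 8) in capitals, since the match to this seed, AGCATTA, was searched in the 3′ UTRs. Of the 8 members only Rnd3 held it, 1631 nt after the stop codon at chr2:51130646-51130674 (minus strand, GRCm38.p6), and 7.97% of genes held at least 1. The site is printed with the match in capitals.
miR-155-5p: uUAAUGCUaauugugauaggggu
Rnd3 site: ctgactggtacAGCATTAtgctttgggca

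Rnd3 had 15 RNA-seq reads with GFP and 101 in the deeper miR-155 library, a ratio of 1.43 (0.827 to 2.65), and 22 and 23 tags, a ratio of 0.849 (0.452 to 1.60). Both intervals include 1. Rgs2 had an RNA-seq ratio of 1.48 (1.14 to 1.96) with miR-155 but a ratio of tags of 1.04 (0.812 to 1.34). With miR-1, Rgs4 was higher in both assays, with an RNA-seq ratio of 1.68 (1.38 to 2.04) and a ratio of tags of 1.53 (1.30 to 1.81), and its mean tail was 98.1 nt against 111 nt. Cell-type markers differed between the same cultures: inhibitory neuron markers summed to 755 CPM with miR-1 and 1259 with GFP, and excitatory neuron markers to 540 and 326. The 5 neuron markers summed to 3507 and 3341 CPM. Among these 5, Syt1 had a ratio of 0.471 (0.375 to 0.592) and Tubb3 one of 1.29 (1.18 to 1.41). The part of the cell-type markers in the Rgs4 value was not tested. Gem had 1, 4 and 8 RNA-seq reads in the GFP, miR-1 and miR-155 cultures, which is too few to compare.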

How the data were processed

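Per the labels and methods, the authors counted RNA-seq reads and RPFs on the reading frame of 1 transcript per gene (mm10), without its first 50 nt, after alignment with STAR, and deposited a count and an RPM value per gene and sample (STAR 2.4.2 and bedtools in the submitters' processing notes). The RPM divides by a larger total than the listed reads, so reads on genes set the scale here. The deposited tail files hold a tag count and a mean tail length per gene, in nt. Those of the hippocampi hold multiples of 0.5 nt, taken as medians, and were not compared in nt. The deposited log2 TE values served as an alternative. Tags on entries other than genes, 1.41% to 19.0% of each tail library, were left out.

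Light was tested with edgeR 4.0.16 (TMM, filterByExpr, quasi-likelihood) on tags and limma 3.58.1 on tails with at least 50 tags per mouse, each with Benjamini-Hochberg adjustment over all genes and a threshold of 0.05, for related genes and background only. The scripts were tested on simulated data. Limma's prior degrees of freedom were infinite, so all genes share 1 SE there. DESeq2 1.42.0 was an alternative. Single libraries were compared by ratios with Clopper-Pearson intervals at 95%, which cover counting error only, as do floors of 3 counts. Intervals of changes in TE used a normal approximation from the counts instead, which is rough where counts are few. Changes in culture needed 20 counts in either library. The members and the lists of related genes were chosen with earlier results of these data known. Named beyond the 8 members were listed genes past the threshold (at most 3 per list and direction), in culture at most 2 per list with the largest change and an interval leaving out 1, and the genes nearest to Gem. Some nearest genes and the miR-155 site were added after values were seen. Another list of related genes is not reported here.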

Additional observations from a re-analysis of the deposited data

Results flagged for a closer look

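Of 26 groups of 4 mice examined for a single value far from the others (levels of the 8 genes, and tails where all mice had 20 tags), 2 stood out by Dixon's ratio, and chance marks about 1 group in 20. Arl4d measured 58.8 CPM (tags scaled to 1000000 on genes) in dark mouse 4 and 15.05 to 19.1 in the other 3 dark mice. Rgs2 measured 79.6 CPM in dark mouse 3 and 91.0 to 92.3 in the other 3. Dark mouse 4 also had the highest dark level of each of the 6 genes of the stimulus check, for example Egr1 at 212 CPM against 101 to 162.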

How the results depend on the processing

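The log2 light difference of each member tested kept its direction under DESeq2, DESeq2's size factors, no filter on low counts, the replicate block and leaving out each mouse. Genes higher in light numbered 116 at first and 94 to 130 without 1 mouse. Genes lower numbered 12, 30 without the filter, and 6 (without light mouse 3) to 20 (without light mouse 4) without 1 mouse. With the replicate block the counts were 103 and 10. Same-numbered mice did not deviate together (correlations of -0.20 to 0.03 for levels and -0.11 to 0.04 for tails), so the numbers were not taken to pair mice. Counts of longer tails were unstable: 10 at first, 5 with at least 20 tags, 1 on the log2 scale, 1 with the replicate block, 3 with the median tail of each mouse subtracted (chosen after seeing the data), and 1 (without dark mouse 3, dark mouse 4, light mouse 2 or light mouse 3) to 21 (without light mouse 4). Genes with shorter tails numbered 0, 3 with at least 20 tags, and 0 to 6 (without dark mouse 1) without 1 mouse.

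Log2 changes by the deposited RPM in place of counts on genes were, by RNA-seq at 30 min of KCl, -0.29 (0.21 at first) for Rgs2, -0.22 (0.28) for Rgs4 and -0.34 (0.16) for Rnd3, so that all 3 signs turned. By RPFs they were 0.17 (0.35) for Rgs2 and -0.12 (0.06) for Rgs4 with glu/gly, and 0.00014 (0.18) and -0.17 (0.02) with 10 min of KCl. Tags in place of RNA-seq gave 0.57 (-0.33) for Rnd3 with 10 min of KCl, and, between adult and embryonic hippocampus, 1.88 (1.25) for Rgs4 and 0.65 (0.09) for Arl4d. Of 51 RNA-seq and 56 RPF alternatives, the other 47 and 52 stayed within the counting interval, some near 0 with a changed sign. The cause of these differences was not tested. Dropping the 10 RPM cutoff of TE only added values. Depth limits Gem in the dark mice, and Rem2 and Rasd1 in all 8 mice.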
